A study of Mus musculus with 8 samples.

Results

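The genes described here are 41 interferon-response genes, taken by symbol from the 13439 genes listed for left ventricles of mouse hearts. All 41 were listed and all 41 passed the filter on low values. They were grouped by role into 11 guanylate-binding and immunity-related GTPases, 5 transcription factors, 8 RNA sensors and their regulators, 13 effectors around the ubiquitin-like protein ISG15, and 4 genes of class I antigen processing and presentation. The 8 RNA libraries form 4 groups with 2 libraries apiece. Floxed hearts (Lin28afl/fl) came from littermate controls, and cKO hearts (Lin28aCko) came from mice with a cardiac knockout of Lin28a, a gene for an RNA-binding protein. Mice of either genotype were sham-operated or underwent transverse aortic constriction (TAC), which narrows the aorta and loads the left ventricle with pressure. TAC hearts were taken on day 5, and the day for sham hearts, the ages, the strain and the Cre driver are not stated in the labels. The title asks whether loss of Lin28a lessens the hypertrophy that this load induces.

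Interferons are secreted proteins, and cells release those of type I on sensing viral or displaced nucleic acid. Type I interferons bind the receptor pair IFNAR1 and IFNAR2, and type II interferon (interferon gamma) binds IFNGR1 and IFNGR2. The receptors activate JAK kinases, which phosphorylate STAT proteins. Complexes that these proteins form bind the interferon-stimulated response element (ISRE) or the gamma-activated site (GAS). The guanylate-binding proteins and immunity-related GTPases are induced mainly by interferon gamma, while the ISG15, OAS and IFIT genes are classical type I targets. Myocardial cells of several kinds express such genes, among them macrophages, endothelium, fibroblasts and cardiomyocytes.

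The ISRE is the sequence that these genes are best known to share, so promoter stretches are shown for the 6 members that passed the threshold between TAC and sham hearts with the lowest adjusted p among those holding a match. RefSeq (GRCm38.p6) gave a promoter for 31 of the 41 members. In windows of 300 bases, 250 before the start of transcription and 50 after it, an ISRE core, searched as a pair of GAAA blocks with 2 bases of any kind between them, on either strand, occurred in 18 of 31 member genes (58.1%) and in 3.99% of 27025 genes. The letters TTCNNNGAA, a GAS form that reads the same on both strands, occurred in 12 of 31 (38.7%) and in 9.55% of all genes. Matches of the ISRE form may overlap each other, and a match is not evidence that a protein binds there. Each stretch below runs from 200 bases before the start to base 30 after it, on the strand of the gene, with ISRE matches in capitals.
Gbp2: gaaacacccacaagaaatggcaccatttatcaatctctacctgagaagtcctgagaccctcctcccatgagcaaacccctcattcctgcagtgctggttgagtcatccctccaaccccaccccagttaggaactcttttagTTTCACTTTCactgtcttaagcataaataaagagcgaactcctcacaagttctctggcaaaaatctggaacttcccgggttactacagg
Gbp5: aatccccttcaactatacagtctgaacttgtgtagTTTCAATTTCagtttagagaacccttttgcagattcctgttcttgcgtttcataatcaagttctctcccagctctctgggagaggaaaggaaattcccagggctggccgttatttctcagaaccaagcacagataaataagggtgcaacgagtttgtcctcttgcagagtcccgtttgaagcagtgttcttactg
Rsad2: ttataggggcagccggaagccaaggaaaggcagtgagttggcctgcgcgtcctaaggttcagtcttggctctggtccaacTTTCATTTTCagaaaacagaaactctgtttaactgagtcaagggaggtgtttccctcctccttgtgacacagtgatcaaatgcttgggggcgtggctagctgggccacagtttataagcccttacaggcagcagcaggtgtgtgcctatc
Isg15: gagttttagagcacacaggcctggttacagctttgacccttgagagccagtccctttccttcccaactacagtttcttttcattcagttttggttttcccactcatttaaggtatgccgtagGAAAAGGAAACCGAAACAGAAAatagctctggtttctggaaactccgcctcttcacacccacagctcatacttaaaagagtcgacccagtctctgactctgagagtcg
Oas1a: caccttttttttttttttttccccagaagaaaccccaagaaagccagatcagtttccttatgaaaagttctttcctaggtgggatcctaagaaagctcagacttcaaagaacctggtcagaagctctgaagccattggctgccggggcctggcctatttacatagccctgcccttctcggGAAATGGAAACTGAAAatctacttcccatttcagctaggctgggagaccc
Ifitm3: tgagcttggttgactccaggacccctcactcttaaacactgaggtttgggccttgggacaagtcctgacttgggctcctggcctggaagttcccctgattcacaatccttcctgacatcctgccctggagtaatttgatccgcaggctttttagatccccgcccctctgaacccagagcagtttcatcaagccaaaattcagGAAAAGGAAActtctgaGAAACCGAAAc
The Gbp2 stretch lies at chr3:142620463-142620692 and its match starts 59 bases before the start of transcription. The Gbp5 stretch, chr3:142496734-142496963, holds a match 165 bases before the start. In Rsad2, at chr12:26456423-26456652 on the minus strand, the match begins 120 bases before the start. Isg15, chr4:156200789-156201018 on the minus strand, has 3 overlapping matches that start 78, 72 and 66 bases upstream. Oas1a, chr5:120907496-120907725 on the minus strand, has a pair that starts 20 and 14 bases upstream, and Ifitm3, chr7:141010715-141010944 on the minus strand, has matches from bases 3 and 20 after the start. Gbp2, Gbp5 and Rsad2 fell with TAC in floxed hearts whereas Isg15, Oas1a and Ifitm3 rose, so genes with these letters moved in both directions. No ISRE match was found in the windows of Irf8 and Ifi44, and that says only that these letters are not there.

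Library totals were between 10315902 and 21871570 reads. Levels are in CPM, that is, scaled to the total of each library. There 3 reads stand for 0.137 to 0.291 CPM, and intervals and limits of this kind cover counting error only. Differences are on the scale of log2(CPM + 1) with the standard error of the limma fit, which understates the change of low genes, and "past the threshold" means a Benjamini-Hochberg adjusted p under 0.05 over 13120 genes tested. The labels do not say that the duplicates came from separate animals, so p-values measure the spread between these libraries only. All 12 cardiomyocyte markers were listed, at summed levels of 46935 to 104573 CPM. The atrial light chain gene Myl7 was raised in 3 libraries, floxed sham 2 (133 CPM), cKO sham 2 (65.0 CPM) and cKO TAC 2 (66.2 CPM), and reached 6.16 CPM at most in the rest. One library, cKO sham 2, had Xist reads (44.3 CPM, 0.17 CPM or less elsewhere). It had 0 to 1 reads of the Y-linked genes Ddx3y, Kdm5d, Uty and Eif2s3y, each of which had at least 117 reads in every other library, so cKO sham 2 differed from the rest in its sex-linked transcripts. The labels give no sex. Lin28a itself was not analysed here. In bulk tissue, fewer cells of a type and less RNA per cell cannot be told apart.

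TAC against sham in floxed hearts gives the response to pressure overload with Lin28a present. Calls went in both directions. Of the 11 GTPases, 4 fell and none rose, whereas 3 of the 8 RNA sensors, 1 of the 5 transcription factors and 3 of the 13 effectors rose and 1 effector fell. In all, 12 of 41 members (29.3%) passed the threshold by limma, 7 higher and 5 lower, against 42.4% of all genes tested, 27.9% higher and 14.5% lower. The median difference was 0.21 over the members and 0.14 over all genes. Libraries of floxed TAC and floxed sham did not overlap for 34 members (82.9%), which compares with 75.6% of all genes. When libraries were rescaled by median ratios (RLE), the calls were 7 higher and 7 lower and the median of all genes fell from 0.137 to 0.003, so the split of calls depends on the scaling. Fewer passed without floxed sham 2 or floxed TAC 2 and more without cKO TAC 1, among the members and among all genes alike.

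TAC against sham in cKO hearts gives the response with Lin28a lost from heart muscle. None of the 41 members passed the threshold by limma, against 2.53% of all genes. An unadjusted p under 0.05 was found for 5 members and for 2142 of 13120 genes. edgeR, DESeq2 and voom also called 0 members, and 346, 691 and 133 of 13120 genes. Libraries of cKO TAC and cKO sham did not overlap for 12 members (29.3%), against 42.8% of all genes. The median size of the response, without sign, was 0.19 in cKO and 0.41 in floxed hearts, next to 0.18 and 0.42 for all genes, so the smaller size in cKO hearts was shared by genes in general. The response was larger in floxed hearts for 33 of 41 members, a count that was not made over all genes. Without cKO TAC 1, 1 member passed, Oas1a with a difference of 1.29, and more of all genes passed as well.

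**Figure D1:**
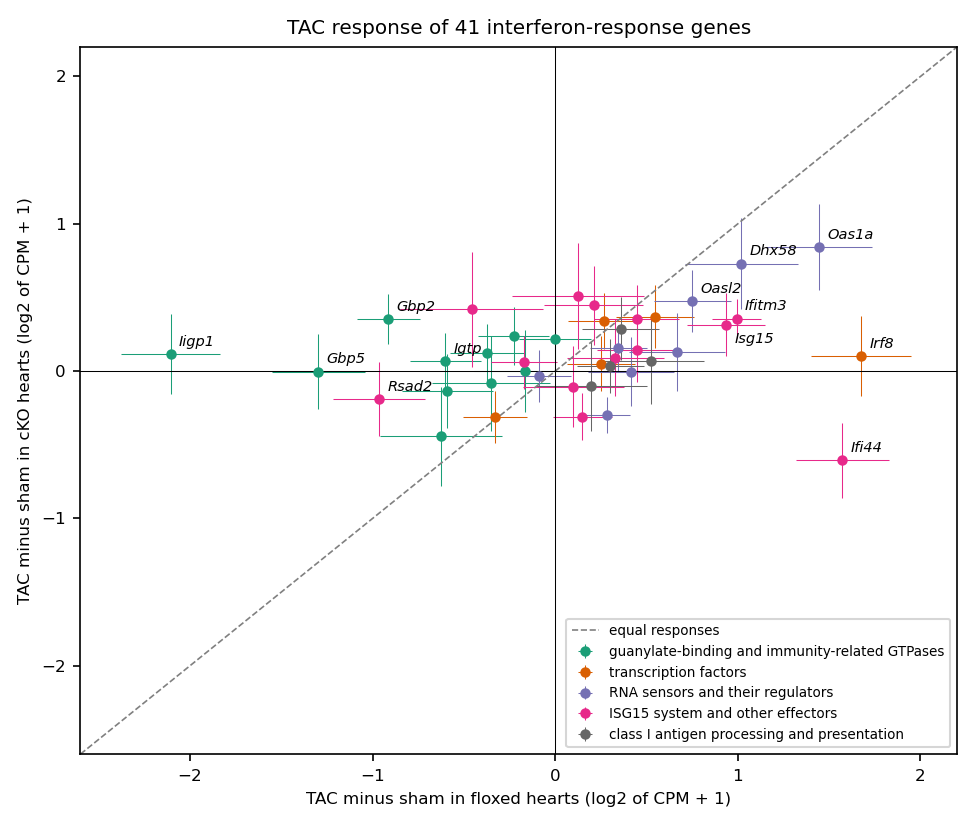
TAC response of each of the 41 members in floxed hearts (horizontal axis) and cKO hearts (vertical axis), as TAC minus sham on the scale of log2(CPM + 1). Points are colored by role, bars are ± the standard error of the limma fit, and the dashed line marks equal responses. The 12 members past the threshold in floxed hearts are named. Gbp2, Gbp5, Iigp1 and Igtp lie to the left of 0 at heights between -0.00 and 0.35, and Irf8 and Ifi44 lie far to the right at heights of 0.10 and -0.61.

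The direct comparison of both responses, the genotype by surgery interaction, is the cKO response minus the floxed response. Iigp1, Gbp2 and Gbp5 fell with TAC in floxed hearts and had differences of -0.00 to 0.35 in cKO hearts, and Irf8 and Ifi44 rose in floxed hearts against 0.10 and -0.61 in cKO hearts. These 5 of 41 members (12.2%) passed the threshold by limma, 3 with a positive and 2 with a negative difference, against 14.1% of all genes, 4.93% positive and 9.18% negative. All 11 GTPases had a positive interaction, with a median of 0.46, while the median of all genes was -0.13. Calls were fewer without floxed sham 1, floxed TAC 2, cKO sham 1 or cKO sham 2, among the members and among all genes alike.

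cKO against floxed was also compared within each surgery. In sham hearts 0 of 41 members passed by limma, against 0.0534% of all genes. An unadjusted p under 0.05 was found for 7 members and for 1013 of 13120 genes. Of the other tools DESeq2 called 1 member, Ifi44, and edgeR and voom called 0. Over all 13120 genes DESeq2, edgeR and voom called 52, 6 and 2. In TAC hearts 7 of 41 members (17.1%) passed, against 24.9% of all genes. The GTPases Iigp1, Gbp6, Igtp and Gbp2 were higher in cKO TAC hearts, where 8.39% of all genes were higher, and Irf8, Ifi44 and Ifitm3 were lower, where 16.5% of all genes were lower. Groups did not overlap for 17 members in sham hearts (41.5%, all genes 41.9%) and for 18 in TAC hearts (43.9%, all genes 63.8%). DESeq2 called 11 members in TAC hearts, where it called 3128 of 13120 genes. RLE scaling called 6 members higher and 3 lower in place of 4 and 3, and moved all genes from 1101 higher and 2162 lower to 1421 and 1752. Without floxed TAC 2 fewer passed, among the members and among all genes alike. These comparisons share libraries with those of TAC against sham and are not independent of them.

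**Figure D2:**
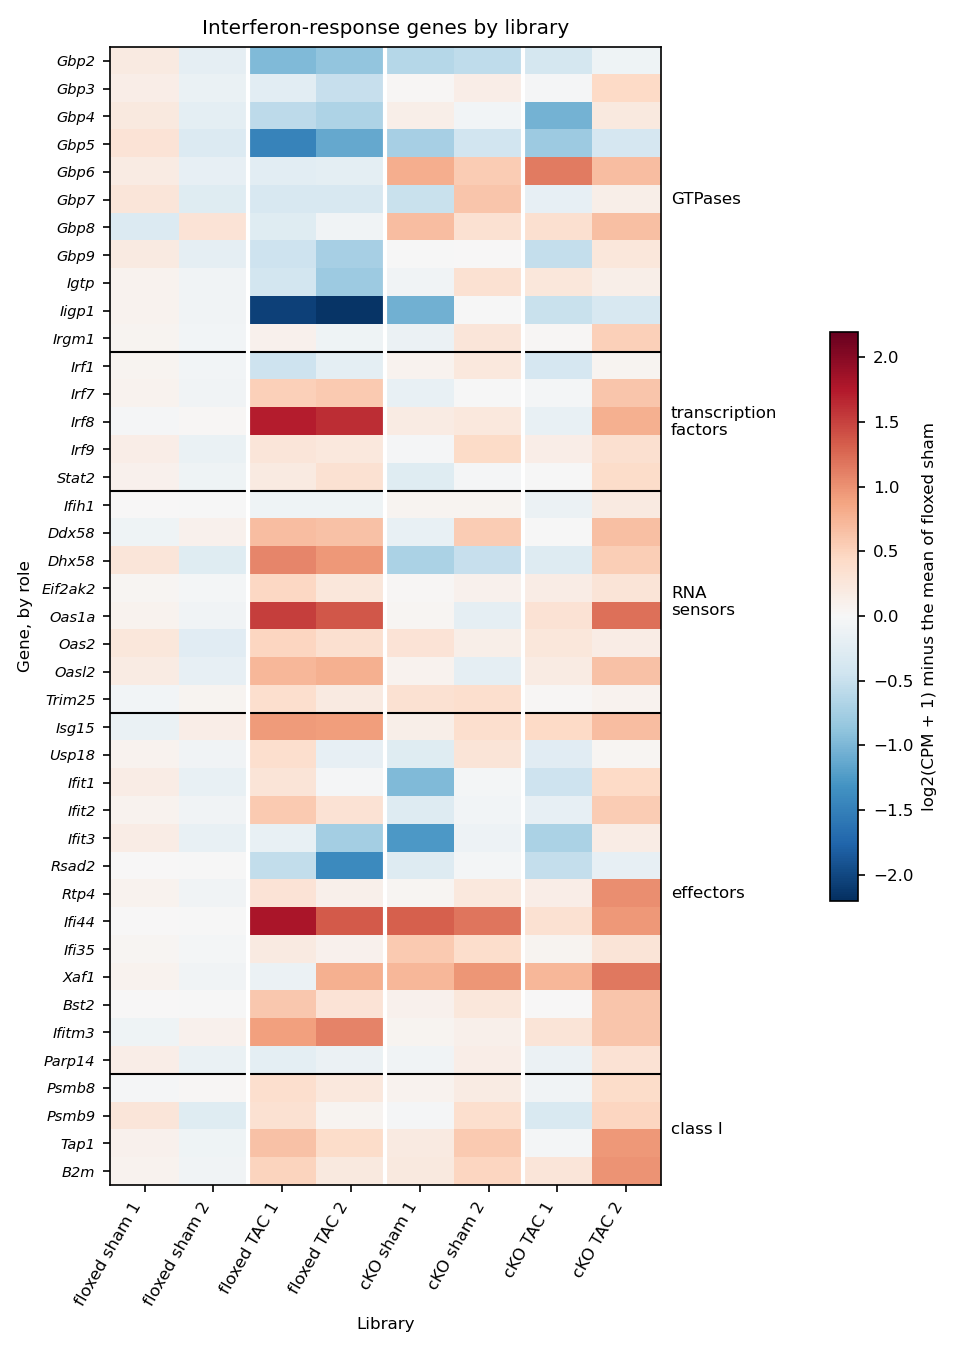
Level of each of the 41 members (rows, by role) in each of the 8 libraries (columns), as log2(CPM + 1) minus the mean of the floxed sham libraries. Blue is lower and red is higher. Iigp1, Gbp5 and Gbp2 are darkest blue in the floxed TAC columns and Irf8, Ifi44 and Oas1a darkest red, and the cKO TAC 2 column is redder than cKO TAC 1.

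The guanylate-binding proteins (Gbp) and immunity-related GTPases (Iigp1, Igtp, Irgm1) are GTP-binding proteins that take part in defence against intracellular microbes. All 11 had a negative difference between floxed TAC and floxed sham hearts, from -2.11 to -0.00 with a median of -0.59 (-0.73 with RLE scaling). The 4 that fell were Iigp1, Gbp5, Gbp2 and Igtp. The summed level of all 11 GTPases was 279 and 224 CPM in floxed sham, 148 and 137 CPM in floxed TAC, 207 and 262 CPM in cKO sham, and 222 and 271 CPM in cKO TAC. The floxed TAC libraries were thus the lowest of the 8. In cKO hearts the median response was 0.07, with 7 positive and 4 negative values. Beside this fall, 7 of 12 cardiomyocyte markers fell and 1 rose in floxed hearts, where 14.5% of all genes fell and 27.9% rose. Their sums went from 104573 and 93471 CPM to 48247 and 46935 CPM. Most of that was in Myh6 (group means of 26292 and 9548 CPM), Atp2a2 (20442 and 6216 CPM) and Myl2 (12083 and 3157 CPM). Tnnt2 was at 5769 and 5539 CPM and Actn2 at 3142 and 3540 CPM, so the sum does not stand for cardiomyocyte content alone. None of 10 endothelial markers passed there, with sums of 1500 and 1497 CPM in floxed sham and 1359 and 1479 CPM in floxed TAC. The part of either cell type in the GTPase values was not tested.

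Iigp1 (ENSMUSG00000054072.12; GRCm38 chromosome 18, 60376027 to 60392634, plus strand) encodes an immunity-related GTPase of the vacuole membrane. It stood at 60.9 and 54.6 CPM in floxed sham, 13.1 and 12.1 CPM in floxed TAC, 27.2 and 57.4 CPM in cKO sham, and 40.99 and 44.95 CPM in cKO TAC. Both floxed TAC libraries were below all others, and the cKO sham libraries lay on either side of cKO TAC. In floxed hearts Iigp1 fell by 2.11 ± 0.27 (4.31-fold lower; limma adjusted p = 0.000276). The difference in cKO hearts was 0.11 ± 0.27, with a 95% interval from -0.50 to 0.72. The interaction was 2.22 ± 0.38 (limma adjusted p = 0.00962), and cKO TAC exceeded floxed TAC by 1.69 ± 0.27 (3.23-fold; limma adjusted p = 0.00322). Without floxed sham 1 the interaction was 2.14 with a limma adjusted p = 0.0548.

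Gbp2 (ENSMUSG00000028270.12; chromosome 3, 142620602 to 142638008, plus strand) was at 40.8 and 30.7 CPM in floxed sham, 17.6 and 19.0 CPM in floxed TAC, 22.5 and 23.8 CPM in cKO sham, and 26.9 and 33.0 CPM in cKO TAC. Floxed sham libraries lay above floxed TAC, and cKO TAC lay above cKO sham. Both cKO sham libraries were below both floxed sham libraries, a difference not past the threshold that also enters the interaction. Gbp2 fell by 0.91 ± 0.17 in floxed hearts (limma adjusted p = 0.00219), and the difference in cKO hearts was 0.35 ± 0.17 (limma adjusted p = 0.346). The interaction was 1.27 ± 0.24 (limma adjusted p = 0.0126), or 1.07 with an adjusted p of 0.0662 without floxed sham 1. In TAC hearts Gbp2 was higher in cKO by 0.67 ± 0.17 (limma adjusted p = 0.0197), with an adjusted p of 0.103, 0.073 and 0.0754 without floxed TAC 1, floxed TAC 2 and cKO TAC 2, and 0.0593 without the 3 libraries with raised atrial transcripts.

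Gbp5 (ENSMUSG00000105504.4; chromosome 3, 142493978 to 142522344, plus strand), which promotes inflammasome assembly, lies in the same cluster as Gbp2, Gbp3 and Gbp7. Its levels were 23.4 and 15.1 CPM in floxed sham, 6.13 and 8.13 CPM in floxed TAC, 11.0 and 13.8 CPM in cKO sham, and 10.4 and 14.4 CPM in cKO TAC. The cKO groups overlapped. Both cKO sham libraries were below both floxed sham libraries, again not past the threshold, and this difference also enters the interaction. Gbp5 fell by 1.30 ± 0.25 in floxed hearts (limma adjusted p = 0.00275) against -0.00 ± 0.25 in cKO hearts. The interaction of 1.29 ± 0.36 (limma adjusted p = 0.0418) had an adjusted p of 0.163, 0.131, 0.0696, 0.106, 0.0579 and 0.072 without floxed sham 1, floxed TAC 1, floxed TAC 2, cKO sham 1, cKO sham 2 and cKO TAC 2.

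Igtp (ENSMUSG00000078853.8; chromosome 11, 58199556 to 58207591, plus strand) was at 21.2 and 19.0 CPM in floxed sham, 14.9 and 11.1 CPM in floxed TAC, 18.9 and 25.5 CPM in cKO sham, and 24.2 and 22.0 CPM in cKO TAC. Both floxed TAC libraries were lowest. Igtp fell by 0.60 ± 0.19 in floxed hearts (limma adjusted p = 0.0314) and was higher in cKO TAC than floxed TAC by 0.79 ± 0.19 (limma adjusted p = 0.0168). The fall had a limma adjusted p of 0.165, 0.0792 and 0.204 without floxed sham 1, floxed sham 2 and floxed TAC 2, and 0.0502 without the 3 libraries with raised atrial transcripts. The TAC genotype difference had 0.122 and 0.0878 without floxed TAC 2 and cKO TAC 1. Of the 50-base stretches in Igtp exons, 11.8% occur in another gene, mainly Irgm2, so part of its reads may be shared.

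Gbp6 (ENSMUSG00000104713.4; chromosome 5, 105270702 to 105293698, minus strand) passed between genotypes in TAC hearts. It was at 19.7 and 15.2 CPM in floxed sham, 14.5 and 14.8 CPM in floxed TAC, 30.8 and 25.9 CPM in cKO sham, and 39.6 and 28.4 CPM in cKO TAC. All 4 cKO libraries were above all 4 floxed libraries. The genotype difference was 1.14 ± 0.20 in TAC hearts (2.21-fold; limma adjusted p = 0.00406) and 0.68 ± 0.20 in sham hearts (limma adjusted p = 0.474). Gbp6 values are uncertain, because 70.7% of its 50-base stretches also occur in another gene, mainly Gm43302. The other 6 GTPases passed in no comparison. Their differences in floxed hearts ran from -0.63 in Gbp4 to -0.00 in Irgm1.

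**Figure D3:**
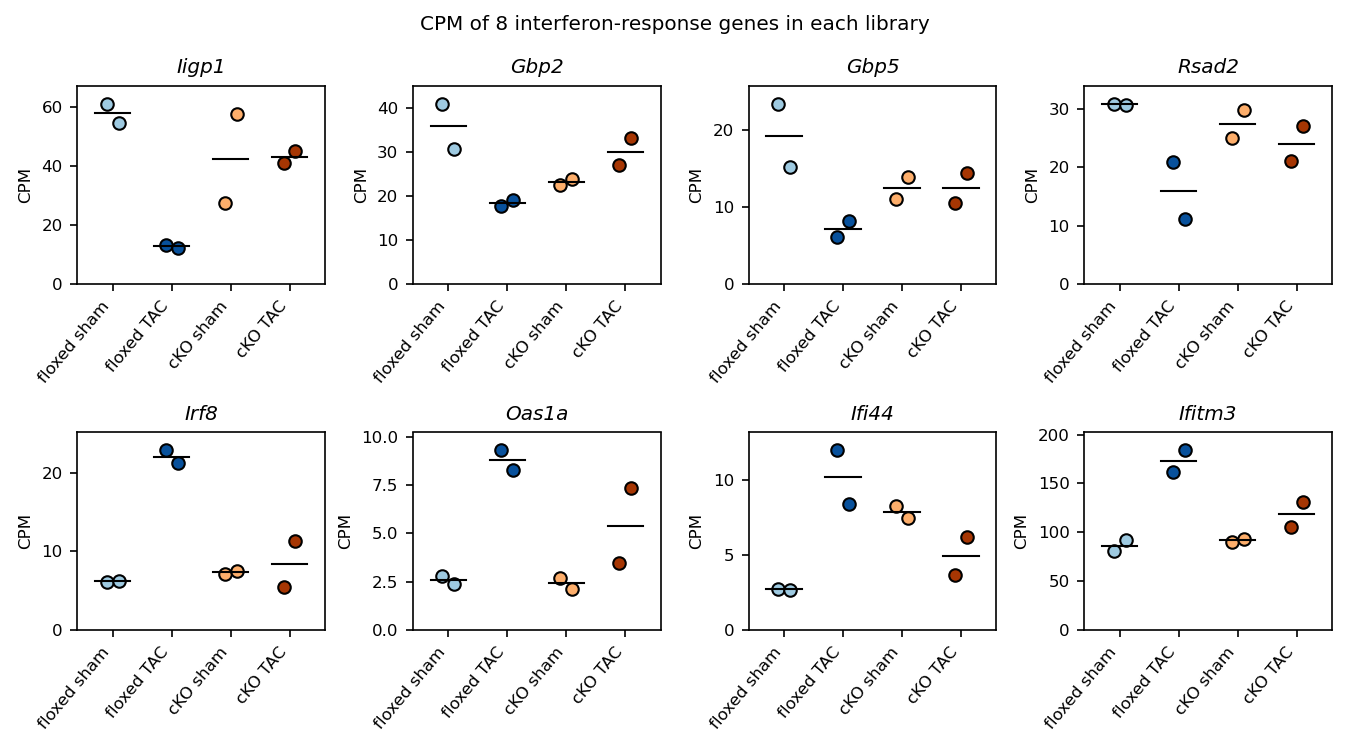
CPM of 8 members in each library, by group. Circles are libraries and the horizontal line is each group mean (n = 2), with each vertical axis starting at 0. In the upper row floxed TAC libraries are lowest for Iigp1, Gbp2, Gbp5 and Rsad2, and in the lower row they are highest for Irf8, Oas1a, Ifi44 and Ifitm3.

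Among the transcription factors, Irf8 was the one member that passed. Irf8 (ENSMUSG00000041515.10; chromosome 8, 120736358 to 120756694, plus strand) directs the development of monocytes, macrophages and dendritic cells. It was at 6.10 and 6.30 CPM in floxed sham, 22.8 and 21.2 CPM in floxed TAC, 7.17 and 7.50 CPM in cKO sham, and 5.46 and 11.4 CPM in cKO TAC. The floxed TAC libraries stood above all others, while those of cKO TAC fell on either side of cKO sham. Irf8 rose by 1.67 ± 0.27 in floxed hearts (3.19-fold; limma adjusted p = 0.000991) against 0.10 ± 0.27 in cKO hearts. The interaction was -1.57 ± 0.38 (limma adjusted p = 0.0273), and cKO TAC was lower than floxed TAC by 1.36 on the log2 scale (log2 -1.36 ± 0.27, limma adjusted p = 0.00738). Leaving out floxed TAC 1 gave the TAC genotype difference an adjusted p of 0.0515. The interaction had adjusted p of 0.101, 0.0801, 0.0876, 0.0765, 0.0598 and 0.0645 without floxed sham 1, floxed sham 2, floxed TAC 1, floxed TAC 2, cKO sham 1 and cKO sham 2.

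Macrophage markers were likewise highest in floxed TAC hearts. Their 13 genes summed to 443 and 449 CPM in floxed sham, 2510 and 2221 CPM in floxed TAC, 470 and 363 CPM in cKO sham, and 788 and 1080 CPM in cKO TAC, and none was at 0. All 13 rose in floxed hearts (27.9% of all genes did) and 10 rose in cKO hearts (2.09% of all genes). In cKO TAC 13 were lower than in floxed TAC (16.5% of all genes). A negative interaction past the threshold was found for 8 (9.18% of all genes). In cKO hearts, where 10 of these markers rose, Irf8 did not pass. Irf8 was below both cKO sham libraries in cKO TAC 1 (5.46 CPM) and above both in cKO TAC 2 (11.4 CPM). The marker sums of both cKO TAC libraries were above those of cKO sham. The part of these cells in the Irf8 values was not tested. Of 17 lymphocyte markers 3 were listed, at summed levels of 1.93 to 4.18 CPM. The other 4 transcription factors are Irf7, the amplifier of type I interferon, Irf1, an activator downstream of interferon gamma, and Irf9 and Stat2, whose proteins take part in ISRE binding. None of them passed in any comparison. Irf7 was at 15.5 and 13.7 CPM in floxed sham and at 21.4 and 22.2 CPM in floxed TAC, a difference of 0.55 ± 0.21 (limma adjusted p = 0.0656). Irf1 had negative differences in both genotypes, -0.33 ± 0.17 in floxed and -0.31 ± 0.17 in cKO hearts (limma adjusted p = 0.156 and 0.416). Irf9 differed by 0.20 ± 0.18 between genotypes in sham hearts (limma adjusted p = 0.801), or -0.02 without cKO sham 2.

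The RNA sensors recognise double-stranded or uncapped RNA, and 7 of the 8 had a positive difference between floxed TAC and floxed sham, with a median of 0.54. Oas1a, Dhx58 and Oasl2 rose. Oas1a (ENSMUSG00000052776.10; chromosome 5, 120896256 to 120907521, minus strand) makes the second messenger that activates RNase L. It was at 2.79 and 2.40 CPM in floxed sham, 9.28 and 8.27 CPM in floxed TAC, 2.71 and 2.12 CPM in cKO sham, and 3.48 and 7.32 CPM in cKO TAC. Both TAC groups lay above their sham groups, and the cKO TAC libraries were far apart. Oas1a rose by 1.44 ± 0.29 in floxed hearts (2.72-fold; limma adjusted p = 0.00328), and the difference in cKO hearts was 0.84 ± 0.29 (limma adjusted p = 0.186). The interaction was -0.60 ± 0.41 (limma adjusted p = 0.354), so the responses were not shown to differ. Oas1a is uncertain too, since 57.6% of its 50-base stretches occur in another gene, mainly Oas1g.

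Dhx58, which encodes the RIG-I-like receptor LGP2, was at 2.66 and 1.50 CPM in floxed sham, 5.39 and 4.88 CPM in floxed TAC, 0.87 and 1.13 CPM in cKO sham, and 1.49 and 3.40 CPM in cKO TAC. Floxed TAC libraries were the highest. Dhx58 rose by 1.02 ± 0.31 in floxed hearts (limma adjusted p = 0.0249), and the difference between cKO TAC and floxed TAC was -0.89 ± 0.31 (limma adjusted p = 0.0641). The rise had an adjusted p of 0.0552 by edgeR and 0.0615 by DESeq2, and 0.172, 0.122 and 0.0882 by limma without floxed sham 2, floxed TAC 1 and floxed TAC 2, and 0.0604 without the 3 libraries with raised atrial transcripts. Without cKO TAC 2 the TAC genotype difference was -1.30 (limma adjusted p = 0.0142). Oasl2, an OAS-like protein with ubiquitin-like domains, was at 14.1 and 10.7 CPM in floxed sham, 21.0 and 21.7 CPM in floxed TAC, 13.0 and 10.6 CPM in cKO sham, and 14.0 and 19.8 CPM in cKO TAC. It rose by 0.75 ± 0.21 in floxed hearts (limma adjusted p = 0.0172), with an adjusted p of 0.133, 0.0674 and 0.084 without floxed sham 2, floxed TAC 1 and floxed TAC 2.

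The receptor genes Ddx58 (RIG-I) and Ifih1 (MDA5), the kinase gene Eif2ak2 (PKR), Oas2 and the RIG-I ubiquitin ligase gene Trim25 passed in no comparison. Ddx58 was at 14.9 and 17.2 CPM in floxed sham and 26.2 and 25.7 CPM in floxed TAC, a difference of 0.67 ± 0.26 (limma adjusted p = 0.0684). Ifih1 lay between 10.6 and 13.6 CPM in all 8 libraries. Trim25 had the lowest adjusted p of the sensors for the interaction, -0.58 ± 0.17 (limma adjusted p = 0.0542). Its levels were 34.1 and 37.6 CPM in floxed sham, 46.7 and 41.2 CPM in floxed TAC, 45.3 and 46.7 CPM in cKO sham, and 36.6 and 37.7 CPM in cKO TAC. Floxed TAC was above floxed sham, and cKO TAC was below cKO sham.

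The effectors include members that rose and 1 that fell with TAC in floxed hearts. Ifitm3 (ENSMUSG00000025492.6; chromosome 7, 141009586 to 141010770, minus strand), a membrane protein that blocks viral fusion, had the highest level per length of the effectors, 127 CPM per kb of merged exons in floxed sham and 255 in floxed TAC. It was at 80.7 and 91.9 CPM in floxed sham, 162 and 184 CPM in floxed TAC, 90.2 and 93.3 CPM in cKO sham, and 106 and 131 CPM in cKO TAC. TAC libraries lay above sham libraries in both genotypes. Ifitm3 rose by 0.99 ± 0.13 in floxed hearts (1.99-fold; limma adjusted p = 0.000341), and the difference in cKO hearts was 0.36 ± 0.13 (limma adjusted p = 0.222). It was lower in cKO TAC than in floxed TAC (log2 -0.55 ± 0.13, limma adjusted p = 0.0166). That call was lost without floxed TAC 2 or cKO TAC 1, and with only the 4 libraries compared. The interaction was -0.64 ± 0.19 (limma adjusted p = 0.0521).

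Ifi44 (ENSMUSG00000028037.13; chromosome 3, 151730922 to 151749960, minus strand), an interferon-induced cytoplasmic protein, had opposite signs in the 2 genotypes. It was at 2.72 and 2.70 CPM in floxed sham, 11.9 and 8.41 CPM in floxed TAC, 8.24 and 7.43 CPM in cKO sham, and 3.70 and 6.17 CPM in cKO TAC. The floxed sham libraries were the lowest of all, and cKO TAC lay below cKO sham. Ifi44 rose by 1.57 ± 0.26 in floxed hearts (2.97-fold; limma adjusted p = 0.000996), against -0.61 ± 0.26 in cKO hearts (limma adjusted p = 0.276). The interaction was -2.18 ± 0.36 (limma adjusted p = 0.0084), the only one of the 5 to stay past the threshold in every alternative run. In sham hearts cKO exceeded floxed by 1.25 ± 0.26 (limma adjusted p = 0.388; DESeq2 gave 1.50 with an adjusted p = 0.0156). In TAC hearts it was lower in cKO (log2 -0.93 ± 0.26, limma adjusted p = 0.0267). That call was lost without floxed TAC 1, floxed TAC 2 or cKO TAC 1, and with only the 4 libraries compared.

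Isg15 (ENSMUSG00000035692.6; chromosome 4, 156199424 to 156200818, minus strand) is the ubiquitin-like modifier of the group. It was at 3.18 and 4.14 CPM in floxed sham, 7.91 and 7.80 CPM in floxed TAC, 4.07 and 4.98 CPM in cKO sham, and 5.30 and 6.45 CPM in cKO TAC. TAC libraries again lay above sham libraries in both genotypes. The rise in floxed hearts was 0.93 ± 0.21 (limma adjusted p = 0.00623; 0.0596 without floxed sham 1), and the difference in cKO hearts was 0.32 ± 0.21 (limma adjusted p = 0.511).

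Rsad2 (ENSMUSG00000020641.16; chromosome 12, 26442746 to 26456452, minus strand) encodes viperin, an antiviral enzyme. It was at 30.9 and 30.7 CPM in floxed sham, 20.9 and 11.1 CPM in floxed TAC, 25.1 and 29.8 CPM in cKO sham, and 21.0 and 27.0 CPM in cKO TAC. Unlike Isg15, Rsad2 was lower in both floxed TAC libraries than in floxed sham. It fell by 0.97 ± 0.25 (limma adjusted p = 0.0124), with an adjusted p of 0.0645, 0.0601 and 0.0841 without floxed sham 1, floxed sham 2 and floxed TAC 2, and 0.0615 without the 3 libraries with raised atrial transcripts. The fall was 0.54 on the log2 scale (log2 -0.54) without floxed TAC 2. The interaction was 0.77 ± 0.36 (limma adjusted p = 0.171).

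The other 9 effectors passed in no comparison. They are Usp18, the protease that removes ISG15, and Ifit1, Ifit2, Ifit3, Rtp4, Ifi35, Xaf1, Bst2 (tetherin) and Parp14. Their differences in floxed hearts were between -0.46 in Ifit3 and 0.45 in Ifit2. Xaf1 had the largest genotype difference in sham hearts after Ifi44, 0.85 ± 0.26 (limma adjusted p = 0.519), with 26.1 and 23.6 CPM in floxed sham and 42.0 and 49.8 CPM in cKO sham. Its floxed TAC libraries were far apart, at 22.7 and 43.5 CPM. Ifit3 shares 51.2% of its 50-base stretches, mainly with Ifit3b, and its values are uncertain.

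The class I genes load peptides for display to T cells, through the immunoproteasome subunits Psmb8 and Psmb9, the transporter Tap1 and the light chain B2m. None of the 4 passed in any comparison, and all 4 had positive differences with TAC in floxed hearts, from 0.20 to 0.53. Tap1 was at 15.1 and 13.0 CPM in floxed sham, 22.5 and 18.8 CPM in floxed TAC, 16.2 and 21.4 CPM in cKO sham, and 13.6 and 28.2 CPM in cKO TAC. The floxed groups did not overlap, and the cKO TAC libraries lay below and above both cKO sham libraries. The floxed difference was 0.53 ± 0.29 (limma adjusted p = 0.177), or 0.0412 and 0.0438 without cKO TAC 1 and cKO TAC 2. B2m, the member with the highest level per length (376 to 598 CPM per kb of merged exons as group means), was at 341 and 305 CPM in floxed sham, 456 and 376 CPM in floxed TAC, 373 and 446 CPM in cKO sham, and 388 and 641 CPM in cKO TAC. The difference between cKO TAC and cKO sham was 0.29 ± 0.21 (limma adjusted p = 0.551) and changed sign without cKO TAC 2. That between cKO TAC and floxed TAC was 0.27 ± 0.21 (limma adjusted p = 0.398), also with its sign changed without cKO TAC 2, and 0.63 (limma adjusted p = 0.0404) without cKO TAC 1.

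**Figure D4:**
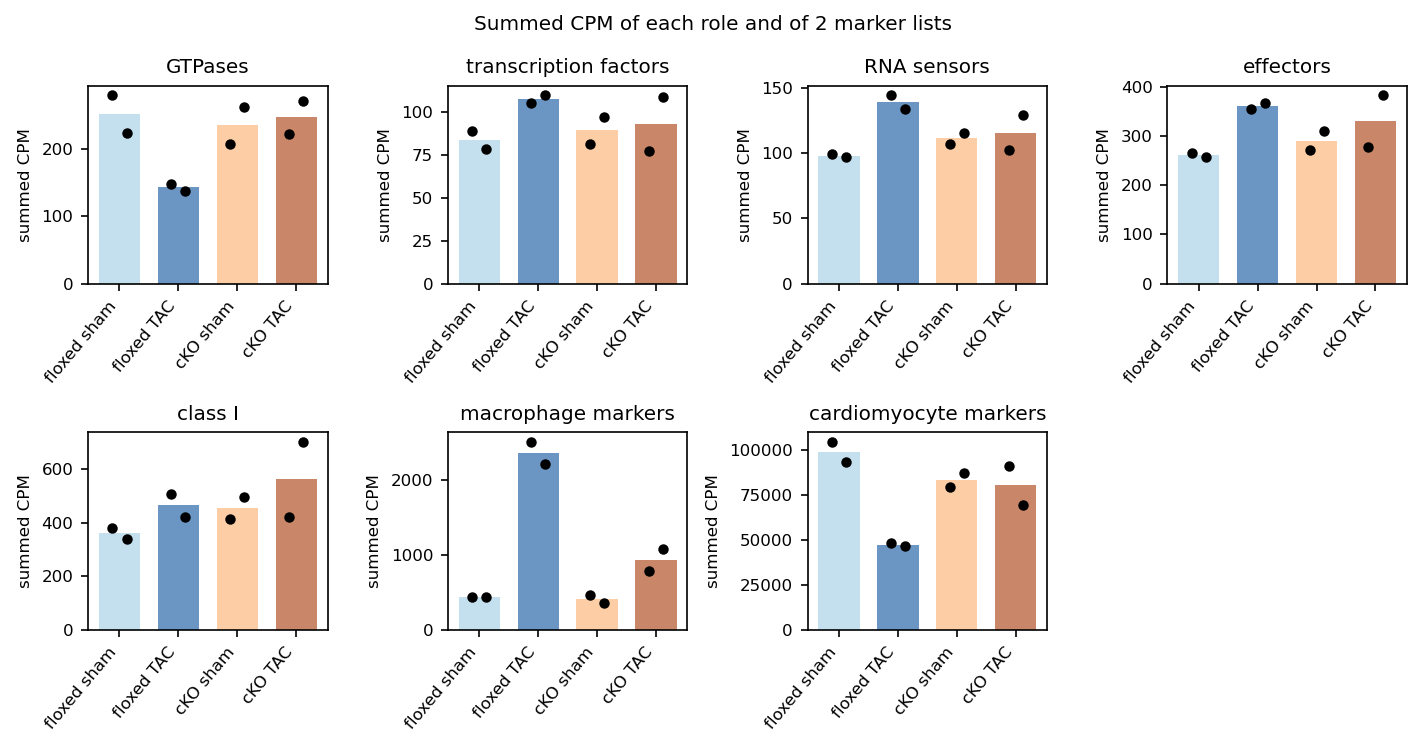
Summed CPM of the members of each role and of the macrophage and cardiomyocyte markers, by group. Bars are group means (n = 2) and points are libraries, with every axis starting at 0. The GTPase sum is lowest in floxed TAC (148 and 137 CPM), where macrophage markers are highest (2510 and 2221 CPM) and cardiomyocyte markers lowest (48247 and 46935 CPM).

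The cKO TAC libraries differed from each other across the members. A total of 38 of 41 members were higher in cKO TAC 2 than in cKO TAC 1, by a median of 0.46 on the log2 scale, whereas 63% of all genes were higher, by a median of 0.10. The summed member level was 1101 CPM in cKO TAC 1 and 1591 CPM in cKO TAC 2, and between 997 and 1278 CPM in the other 6 libraries. In cKO sham, 33 of 41 members were higher in library 2, against 55.3% of all genes. In floxed sham and floxed TAC 7 and 12 members were, against 54.2% and 48.5% of all genes. cKO TAC 2 is a library with raised atrial transcripts, and its macrophage markers summed to 1080 CPM against 788 CPM in cKO TAC 1. Endothelial and fibroblast marker sums were also higher in cKO TAC 2, at 1738 against 1193 CPM and 5384 against 3891 CPM. The fibroblast sums differed mainly through Col1a1 (1248 against 509 CPM), Col1a2 (1042 against 540 CPM) and Postn (677 against 403 CPM). Dcn was at 806 against 789 CPM, and Gsn was lower in cKO TAC 2, at 1221 against 1304 CPM. The cardiomyocyte sum was lower there, at 69794 against 91364 CPM. The part of any of these in the member values was not tested.

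Other genes of the pathway were drawn from a list of 134 symbols, of which 114 were listed and tested. With TAC in floxed hearts 46 rose and 8 fell, which is 47.4% against 42.4% of all genes (27.9% higher and 14.5% lower). In cKO hearts 5 rose and 3 fell, 7.02% against 2.53% of all genes (2.09% higher and 0.442% lower). In TAC hearts 9 were higher and 22 lower in cKO, 27.2% against 24.9% of all genes (8.39% higher and 16.5% lower). The interaction was positive for 1 and negative for 12, 11.4% against 14.1% of all genes (4.93% positive and 9.18% negative). In sham hearts 1 passed, Gbp1 (0.877% against 0.0534% of all genes). Counts without single libraries were 34 without floxed sham 2 and 35 without floxed TAC 2 for the floxed response, and 13 to 14 without floxed TAC 1, floxed TAC 2 or cKO TAC 1 for the TAC genotype difference. For the cKO response the count of 8 was 2 to 4 without any 1 library other than cKO TAC 1. The interaction count of 13 was 2, 7, 5, 6 and 8 without floxed sham 1, floxed sham 2, floxed TAC 1, floxed TAC 2 and cKO TAC 1, and 26 without cKO TAC 2. In each of these runs the calls over all genes moved in the same direction. None of the 9 interferon genes on the list was analysed here, so the ligands carry no value.

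Receptor genes moved in both directions in floxed hearts. Of 9 receptors and kinases, Ifnar1, Ifnar2 and Ifngr1 rose and Ifngr2 and Il10rb fell. Ifnar1 was at 29.8 and 34.4 CPM in floxed sham, 48.8 and 53.5 CPM in floxed TAC, 32.3 and 39.3 CPM in cKO sham, and 34.9 and 39.8 CPM in cKO TAC, and rose by 0.66 ± 0.15 in floxed hearts (limma adjusted p = 0.00565; 0.0597 without floxed sham 1). Ifngr2, the signalling chain for interferon gamma, was at 315 and 318 CPM in floxed sham, 205 and 202 CPM in floxed TAC, 336 and 314 CPM in cKO sham, and 263 and 252 CPM in cKO TAC. It fell by 0.64 ± 0.10 in floxed hearts (limma adjusted p = 0.000654), and the difference in cKO hearts was -0.33 ± 0.10 (limma adjusted p = 0.115). The binding chains Ifnar2 and Ifngr1 rose by 0.57 ± 0.13 and 0.45 ± 0.13 in floxed hearts. Il10rb, shared by the receptors for interferon lambda and interleukin 10, fell by 0.85 ± 0.10 in floxed and 0.48 ± 0.10 in cKO hearts (limma adjusted p = 0.000212 and 0.0493, the latter lost in 14 of 19 alternatives, at 0.0632 with RLE scaling, 0.0805 to 0.182 without any 1 library other than cKO TAC 1, and 0.33 without the 3 libraries with raised atrial transcripts). It was higher in cKO TAC than in floxed TAC by 0.67 ± 0.10 (limma adjusted p = 0.00293), as was Ifngr2 by 0.34 ± 0.10 (limma adjusted p = 0.0294; 0.0641 to 0.113 without any 1 floxed library or cKO TAC 1, and 0.11 without the 3 libraries with raised atrial transcripts).

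Of 17 nucleic acid sensors and adaptors, 11 rose and 1 fell in floxed hearts, 70.6% against 42.4% of all genes. Tlr9, the endosomal DNA receptor, was at 0.45 and 0.48 CPM in floxed sham, 6.77 and 7.90 CPM in floxed TAC, 0.58 and 1.13 CPM in cKO sham, and 1.10 and 1.61 CPM in cKO TAC. It rose by 2.50 ± 0.25 (limma adjusted p = 7.71e-05), and its interaction was -2.15 ± 0.35 (limma adjusted p = 0.00835). Tmem173 (STING) and Zbp1 rose by 1.88 ± 0.30 and 1.87 ± 0.30 in floxed hearts. In TAC hearts Tlr9, Tmem173 and Tlr7 were lower in cKO, with log2 differences of -1.83, -1.42 and -0.89. The Tmem173 call was lost without floxed TAC 1 and floxed TAC 2 (limma adjusted p = 0.0583 and 0.06). That of Tlr7 was lost in 7 of 19 alternatives, with limma adjusted p of 0.0501 with RLE scaling, 0.0596 with a pseudocount of 0.1 and 0.0709 to 0.146 without any 1 TAC library, and with 0.055 by edgeR. Zbp1 and Tlr7 also rose in cKO hearts, by 1.50 ± 0.30 and 1.20 ± 0.25 (limma adjusted p = 0.0369 and 0.0432). Those cKO calls were lost in 8 and 11 of 19 alternatives, with limma adjusted p of 0.225 and 0.185 without the 3 libraries with raised atrial transcripts. Zbp1 had 0.0683 to 0.162 without floxed TAC 1, floxed TAC 2, cKO sham 1, cKO sham 2 or cKO TAC 2, and Tlr7 had 0.0575 to 0.173 without any 1 library other than cKO sham 1.

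Among feedback inhibitors, Socs3, which blocks JAK activity at cytokine receptors, was at 2.85 and 4.14 CPM in floxed sham, 35.3 and 40.2 CPM in floxed TAC, 3.59 and 4.25 CPM in cKO sham, and 4.14 and 9.10 CPM in cKO TAC. It rose by 3.12 ± 0.30 in floxed hearts (limma adjusted p = 6.98e-05), and its interaction was -2.56 ± 0.43 (limma adjusted p = 0.00878; 0.0511 without floxed sham 1). The 5 chemokine genes moved both ways. Cxcl10, Ccl7, Ccl12 and Ccl5 rose in floxed hearts while Cxcl9, a target of interferon gamma, fell by 0.70 ± 0.22 (limma adjusted p = 0.0266). Cxcl9 was at 7.79 and 5.94 CPM in floxed sham, 3.57 and 4.09 CPM in floxed TAC, 11.0 and 8.16 CPM in cKO sham, and 9.49 and 10.1 CPM in cKO TAC, so that both floxed TAC libraries were lowest. It was higher in cKO TAC than in floxed TAC by 1.16 ± 0.22 (limma adjusted p = 0.00549). Cxcl10 was at 0.19 and 0.24 CPM in floxed sham and 4.57 and 3.11 CPM in floxed TAC, and at 0.88 and 1.33 CPM in cKO TAC.

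The other interferon-induced GTPases also moved both ways. Tgtp1 and Tgtp2, near-identical immunity-related GTPases, fell by 0.96 ± 0.29 each in floxed hearts (limma adjusted p = 0.0224 and 0.0234) and were higher in cKO TAC than in floxed TAC by 1.00 ± 0.29 and 1.07 ± 0.29 (limma adjusted p = 0.032 and 0.0245). Tgtp1 was at 15.2 and 9.60 CPM in floxed sham, 5.53 and 5.90 CPM in floxed TAC, 7.85 and 14.6 CPM in cKO sham, and 13.1 and 11.8 CPM in cKO TAC. Leaving out floxed sham 1, floxed TAC 1 and floxed TAC 2 gave its fall limma adjusted p of 0.183, 0.0978 and 0.0784. The TAC genotype calls were lost without any 1 of the 4 TAC libraries, with limma adjusted p of 0.054 to 0.135 for Tgtp1 and 0.0596 to 0.111 for Tgtp2. Irgm2 had a difference of -0.72 ± 0.26 in floxed hearts (limma adjusted p = 0.0512). Gbp1 (Gbp2b in RefSeq), which lies between Gbp3 and Gbp2, showed another pattern. It was at 0.26 and 0.06 CPM in floxed sham, 10.9 and 13.2 CPM in floxed TAC, 6.01 and 19.1 CPM in cKO sham, and 0.22 and 0.23 CPM in cKO TAC. These are 4, 1, 4 and 4 reads in the floxed sham and cKO TAC libraries, and 62 to 288 reads in the other 4. Gbp1 passed in every comparison, with an interaction of -6.77 ± 0.58 (limma adjusted p = 0.00123), a size that depends on the pseudocount. Its genotype call in sham hearts (limma adjusted p = 0.0273) was lost in 7 of 19 alternatives, at 0.514 by voom, 0.055 with only the 4 libraries compared, 0.249, 0.327, 0.0928 and 0.0925 without floxed sham 1, floxed sham 2, floxed TAC 1 and floxed TAC 2, and 0.0926 without the 3 libraries with raised atrial transcripts. Its call in cKO hearts was lost by voom (0.0673) and with only the 4 libraries compared (limma adjusted p = 0.0558). The sign of its TAC response was opposite in the 2 genotypes, and opposite to that of Gbp2 in floxed hearts. Gbp1 lies in the cluster of Gbp2 and Gbp5 on chromosome 3, and the labels do not give the strain of any group. Ifi44, also on chromosome 3, was likewise lower in floxed sham and cKO TAC than in floxed TAC and cKO sham. Gbp2, Gbp5 and Ifi44 all passed in the interaction, and the part of their shared chromosome in these calls was not tested.

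Other transcription factors of the pathway that rose in floxed hearts were Irf5 (1.99 ± 0.27), Ciita, the activator of class II genes (1.91 ± 0.27), and Nlrc5, the activator of class I genes (1.14 ± 0.26). Irf5 and Ciita were lower in cKO TAC than in floxed TAC (log2 -1.38 and -1.28), with limma adjusted p of 0.0645 for Irf5 without floxed TAC 1, and of 0.0997 and 0.0671 for Ciita without floxed TAC 2 and cKO TAC 1. Nlrc5 had 0.0526 without floxed sham 2 (limma adjusted p). Stat3 rose in cKO hearts by 0.63 ± 0.13 (limma adjusted p = 0.036; 0.0647 to 0.161 without any 1 library other than cKO TAC 1, and 0.226 without the 3 libraries with raised atrial transcripts). Ptpn6, a phosphatase that restrains JAK signalling, rose by 1.97 ± 0.29 in floxed hearts and was lower in cKO TAC (log2 -1.26; limma adjusted p = 0.0682, 0.0828 and 0.0848 without floxed TAC 1, floxed TAC 2 and cKO TAC 1). Cish fell in floxed hearts (log2 -0.75 ± 0.22, limma adjusted p = 0.0225; 0.172 without floxed sham 2 or floxed TAC 2, and 0.19 without the 3 libraries with raised atrial transcripts). The antiviral GTPase gene Mx1 rose by 0.99 ± 0.26 in floxed hearts (limma adjusted p = 0.0135; 0.101 without floxed sham 2 and 0.0938 without the 3 libraries with raised atrial transcripts) from at most 0.32 CPM in floxed sham.

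Of 43 other effectors 16 rose and none fell in floxed hearts by limma, 37.2% against 42.4% of all genes. An unadjusted p under 0.05 was found for 19 of them and for 6604 of 13120 genes. Slfn2, Ifi27l2a and Slfn8 rose by 1.64 ± 0.20, 1.57 ± 0.18 and 1.50 ± 0.46. The Slfn8 call was lost with a pseudocount of 0.1 and without floxed sham 2, floxed TAC 1 and floxed TAC 2 (limma adjusted p = 0.0618, 0.151, 0.153 and 0.0548). Ifi27l2a rose by 1.55 ± 0.18 in cKO hearts as well (limma adjusted p = 0.0046; 0.0667 without the 3 libraries with raised atrial transcripts), with 15.2 and 19.0 CPM in floxed sham, 55.3 and 50.3 CPM in floxed TAC, 15.7 and 11.9 CPM in cKO sham, and 37.6 and 47.0 CPM in cKO TAC. Its TAC libraries were above its sham libraries in both genotypes, and its interaction was -0.02 ± 0.26, with a 95% interval from -0.60 to 0.56. Epsti1 rose in cKO hearts by 1.31 ± 0.28 (limma adjusted p = 0.0476; 0.0831 to 0.167 without any 1 library other than cKO TAC 1, and 0.238 without the 3 libraries with raised atrial transcripts). Slfn8, Oas3 and Slfn2 were lower in cKO TAC than in floxed TAC, with log2 differences of -1.53, -1.11 and -0.93. The Slfn8 difference was lost in 7 of 19 alternatives, with limma adjusted p of 0.0509 and 0.0847 with pseudocounts of 0.5 and 0.1, 0.0501, 0.199, 0.0912 and 0.185 without floxed sham 1, floxed TAC 1, floxed TAC 2 and cKO TAC 1, and with 0.061 by edgeR. That of Oas3 was lost in 6, with 0.0547 by edgeR, 0.0605 by DESeq2, and limma adjusted p of 0.0665 with a pseudocount of 0.1 and 0.132, 0.105 and 0.134 without floxed TAC 1, floxed TAC 2 and cKO TAC 1. Slfn2 had 0.0789 and 0.0518 without floxed TAC 1 and cKO TAC 1 (limma adjusted p). Among 14 other class I genes the chaperone genes Pdia3 and Calr rose in floxed hearts by 1.22 ± 0.15 and 0.87 ± 0.16, and Psme1, a proteasome activator subunit, fell (log2 -0.63 ± 0.11). Pdia3 and Calr were lower in cKO TAC (log2 -1.08 and -0.98), H2-Q4 was higher there by 0.67 ± 0.20 (limma adjusted p = 0.0391; 0.0748, 0.209 and 0.169 without floxed TAC 1, floxed TAC 2 and cKO TAC 2), and H2-T24 fell in cKO hearts (log2 -1.20 ± 0.24, limma adjusted p = 0.0369; 0.0625 to 0.165 without floxed sham 1, floxed sham 2, cKO sham 1, cKO sham 2 or cKO TAC 2, and 0.296 without the 3 libraries with raised atrial transcripts). Both H2 genes have close paralogs, so their reads may be shared.

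**Figure D5:**
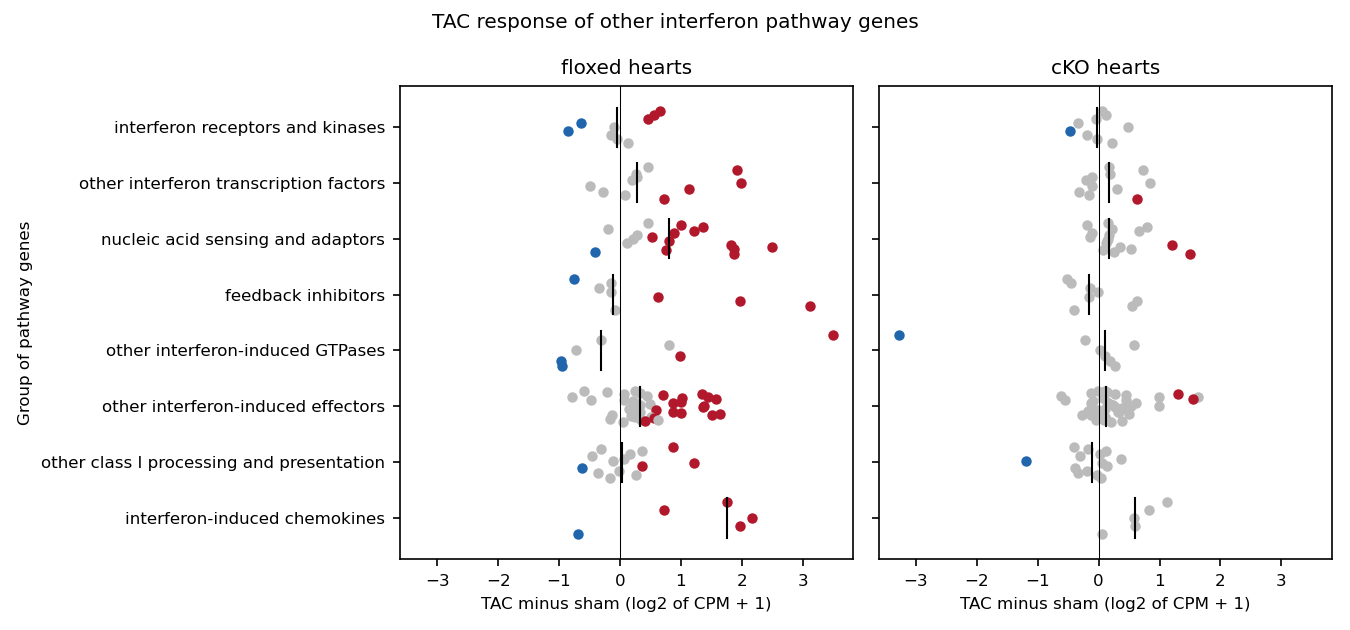
TAC minus sham on the scale of log2(CPM + 1) for the 114 other interferon pathway genes in floxed hearts (left) and cKO hearts (right), by group of genes. Points are genes, red and blue points passed the threshold as higher and lower, grey points did not, and vertical ticks are medians. In floxed hearts 46 points are red and 8 blue, and in cKO hearts 5 are red and 3 blue.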

How the data were processed

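The authors deposited CPM values, reads per gene scaled to the reads assigned in each library, in 1 column per library for 13439 genes. Per the submitters' processing notes, Bowtie2 2.2.6, HTSeq and DESeq2 were used with mm10, and per the labels' protocols the libraries were stranded mRNA of left ventricles. The annotation and the counting settings, strand included, were not given in the sources used here, so overlapping genes may share reads. Whole reads could be recovered from every value (tolerance 0.02 reads) and served the count tests run as alternatives.

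The 13120 genes that reached 1 CPM in 2 or more libraries were fitted with limma 3.58.1 (trended variance, R 4.3.3) on log2(CPM + 1), with 1 coefficient per group, and p-values were adjusted over all genes tested by Benjamini-Hochberg. Alternatives were pseudocounts of 0.5 and 0.1, no filter, RLE and TMM scaling, a replicate block, edgeR 4.0.16, DESeq2 1.42.0, voom, only the 4 libraries compared, leaving out each library, and leaving out the 3 libraries with raised atrial transcripts. The fit was tested on simulated data.

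The members and lists were chosen with earlier results of these data known. Members given with every library were the 3 with the largest difference in each role and comparison among those past the threshold, or else that with the lowest adjusted p; the same rule, without the latter part, named the other pathway genes, with receptors added; 1 further gene is not reported here. Gene positions are from GENCODE M21 (GRCm38), and shared 50-base stretches were counted over its transcripts.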

Additional observations from a re-analysis of the deposited data

Results flagged for a closer look

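Results are listed here because the TAC response differed between cKO and floxed hearts past a limma adjusted p of 0.05, given as the cKO response less the floxed one on the scale of log2(CPM + 1). Each rests on 2 libraries per group. Among the 41 members the values were 2.22 for Iigp1, 1.29 for Gbp5, 1.27 for Gbp2, -1.57 for Irf8 and -2.18 for Ifi44. The positive values belong to GTPases that fell in floxed hearts.

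Among the 114 other pathway genes 13 differed. Trex1, a DNA exonuclease that fell in floxed hearts, had 0.66. Genes of sensing and signalling with negative values were Tlr9 (-2.15), Myd88 (-1.0), Samhd1 (-0.68), Socs3 (-2.56) and Ptpn2 (-0.79). Effectors and GTPases were Gbp1 (-6.77), Ifitm2 (-0.86), Shisa5 (-1.0) and Slfn2 (-1.14). The class I chaperone genes Calr and Pdia3 had -1.29 and -1.17, and the chemokine gene Cxcl10 had -1.38. The calls of Ptpn2, Samhd1 and Cxcl10 were lost in 14 of their 18 alternatives each, and the highest limma adjusted p was 0.14, 0.148 and 0.168. Trex1, Slfn2, Shisa5 and Ifitm2 lost theirs in 9, 7, 6 and 4 of 18, Gbp5 and Irf8 in 6 each, Myd88 in 2, and Iigp1, Gbp2, Socs3, Calr and Pdia3 in 1 each, without floxed sham 1. Those of Ifi44, Tlr9 and Gbp1 were lost in none of the 18.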

How the results depend on the processing

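Of the 24 member differences past the threshold, all 24 stayed past it with pseudocounts of 0.5 and 0.1, no filter, RLE and TMM scaling, the replicate block and voom, 23 with edgeR and DESeq2 (Dhx58 was lost), and 17 of 19 with only the 4 libraries compared. The 2 lost with only the 4 libraries compared were the TAC genotype differences of Ifi44 and Ifitm3. None of the 24 changed sign in any alternative. They dropped to 14 without floxed TAC 2 and to 17 without floxed sham 1 or floxed TAC 1; a group left with 1 library is assumed to vary like the others. The TAC response of Iigp1, Gbp5, Gbp2, Irf8, Oas1a, Ifi44 and Ifitm3 in floxed hearts was not lost in any. Leaving out single libraries gave 8 to 18 members in floxed hearts, 0 to 1 in cKO hearts, 0 to 0 for genotype in sham hearts, 4 to 10 for genotype in TAC hearts and 1 to 6 for the interaction, and 34 to 60, 2 to 10, 0 to 2, 13 to 38 and 2 to 26 other pathway genes. The calls over all genes also changed with the library left out. With only the 4 libraries compared 20 members passed in floxed hearts, where 6356 of 12908 genes did. DESeq2 called 1 member for genotype in sham hearts and 11 in TAC hearts, where it called 52 and 3128 of 13120 genes. Of other pathway genes in cKO hearts 2 passed by voom, 1 with only the 4 libraries compared and 1 without the 3 libraries with raised atrial transcripts; for genotype in sham hearts 0 passed in each of these. Signs changed for B2m without cKO TAC 2 (TAC in cKO hearts -0.072 to 0.650 over left-out libraries; genotype in TAC hearts -0.094 to 0.629, and -0.094 without the 3 libraries), for Irf9 between sham genotypes without cKO sham 2 (-0.024 to 0.424; -0.165 without the 3 libraries) and for the Tap1 interaction without cKO TAC 1 (-0.956 to 0.046). The cause was not tested. Libraries with the same number in different groups did not deviate together (correlations of -0.11 to 0.08), so the numbers were not taken as pairs, although the 3 libraries with raised atrial transcripts all carry number 2; with the replicate block 13, 0, 0, 7 and 6 members passed in floxed hearts, cKO hearts, sham genotype, TAC genotype and the interaction.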
